A study of Caenorhabditis elegans with 2 samples.

Results

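Cell membranes are built mainly from phosphatidylcholine and phosphatidylethanolamine. Phosphatidylserine synthases and phosphatidylserine decarboxylase make phosphatidylethanolamine by one route. In the CDP-choline and CDP-ethanolamine routes, a cytidylyl transferase activates the head group and a phosphotransferase joins it to diacylglycerol. Nematodes, like plants, can also methylate phosphoethanolamine to phosphocholine before it enters the CDP-choline route. During autophagy, phosphatidylethanolamine is the lipid to which Atg8-family proteins are joined, and in mammals TFEB, the relative of HLH-30, is known for switching on autophagy and lysosome genes.

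HLH-30 peaks were examined at 8 genes of this synthesis, psd-1, pssy-1, pssy-2, pmt-1, pmt-2, pcyt-1, cept-1 and cept-2, among 19973 protein-coding genes. The genes were chosen by pathway and selected on a measured value, since psd-1 is nearest to one of the strongest peaks, so the signals of psd-1 are given as a description. Late embryos of Caenorhabditis elegans hermaphrodites were used whole, as 2 biological replicates of strain OP433. This strain carries unc-119(tm4063) on chromosome III and the integrated transgene wgIs433, from which HLH-30 is made fused to GFP and FLAG at the C-terminal end. Binding was mapped by chromatin immunoprecipitation with an antibody to GFP, and the samples analysed form a single group with no treatment. The material mixed all cells of the embryo, and the tagged protein came from a transgene.

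For each gene, every peak summit from 5000 bp upstream of its 5' end to its 3' end was taken. The deposited lists in the ce11 build were read, namely those of replicate 1 (11695 peaks), of replicate 2 (30000 peaks) and of both replicates pooled (18832 peaks), and the optimal list of 1959 peaks kept by the irreproducible discovery rate. The optimal peaks were the 1959 pooled peaks of highest signal, so a peak in that list need not be strong in both replicates. The first 3 lists hold background regions beside peaks, per the deposited file descriptions, so a weak summit in them is not by itself a bound site. Signal is the authors' value per peak, made against a control, and is compared only within a list. Ranks count from the highest signal of a list.

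The optimal list held 4 summits in the windows of 2 of the 8 genes, psd-1 and cept-2. Of all protein-coding genes 15% had such a summit. Since psd-1 was selected for its strong peak, it was bound to be counted here, by the nearest start and in the pooled list. Of the other 7 genes only cept-2 had an optimal summit in its window, which is close to the background. With the summit given only to the gene of the nearest start, the same 2 genes were counted against 7.59% of all genes, and with that start within 2000 bp against 7.01%. Only cept-2 had an optimal summit from 1000 bp upstream to 200 bp downstream of an annotated start, where 6.65% of all genes had one. In the pooled list 7 of the 8 windows held a summit against 71.4% of all genes. In replicate 1 the count was 6 of 8 against 57%, and in replicate 2 it was 8 of 8 against 82.9%. These shares also lie near the background, and the windows of the 8 genes, at 7987 to 13699 bp, were longer than the median of 7027 bp over all genes. The selected gene psd-1 stood apart from the other 7 by the height of its strongest peak, the value on which it was selected. By presence alone, cept-2 also had a summit in the optimal list, and every other member except pssy-2 had one in the pooled list.

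**Figure D1:**
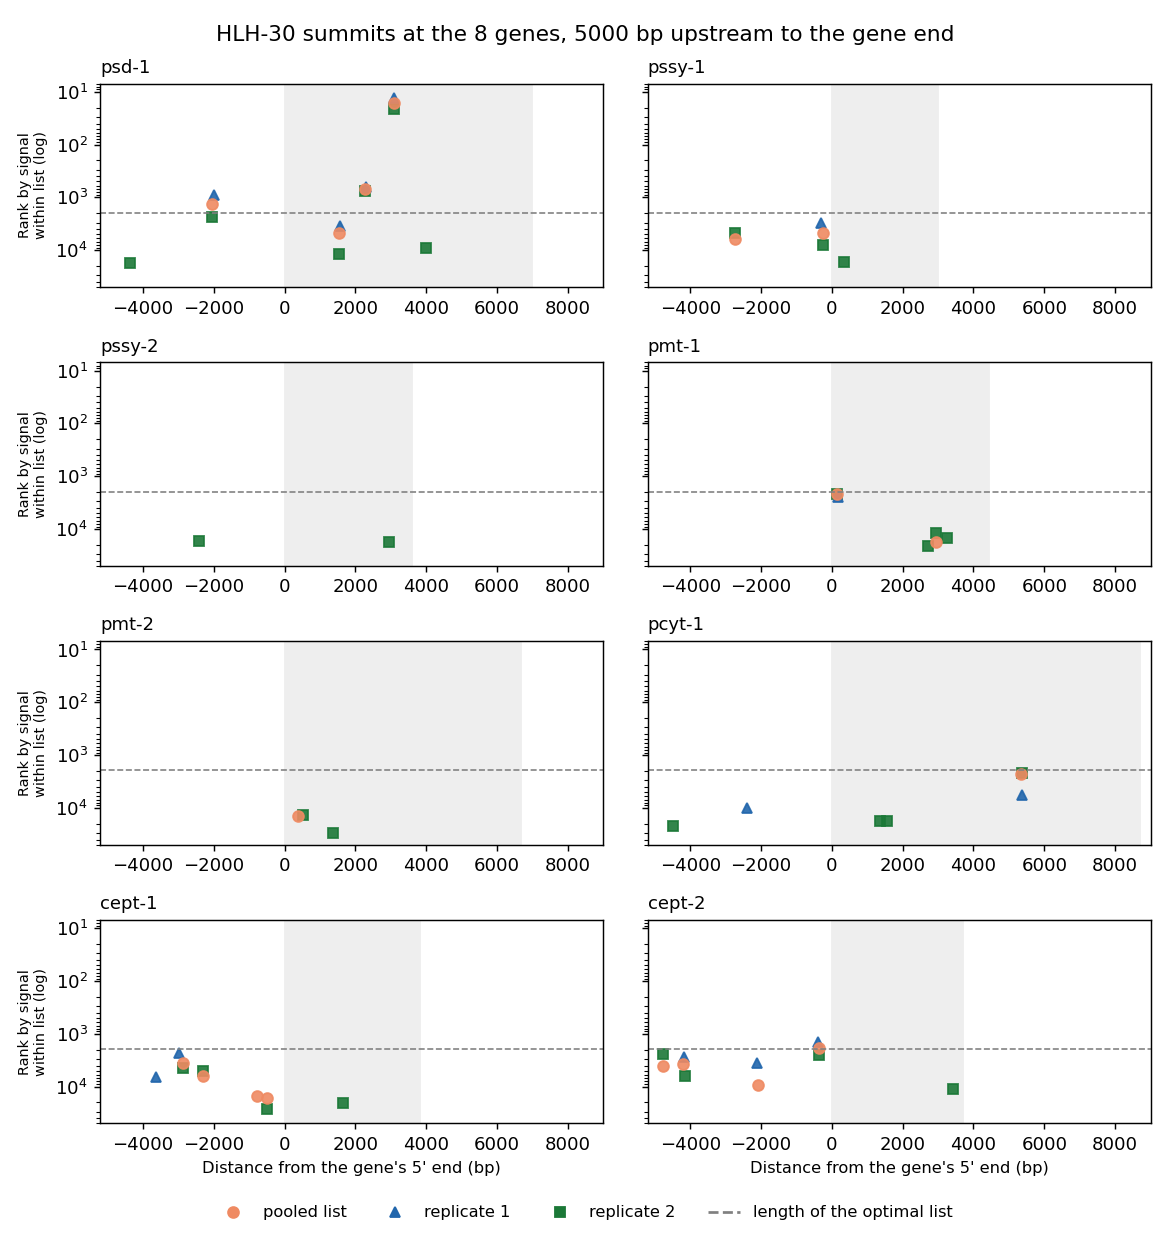
Each panel shows a gene, with the distance of every summit from the gene's 5' end on the x axis (bp, negative is upstream, the gene body shaded) and its rank by signal within its list on a log y axis, highest at the top. Circles are the pooled list, triangles replicate 1 and squares replicate 2, and the dashed line marks rank 1959, the length of the optimal list. The psd-1 peak at ranks 13 to 21 stands above every other summit, and pssy-2 holds only 2 low-ranked squares.

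The bases under 6 of these peaks are shown as examples, picked for their contrast in E-boxes, so they do not give the share of peaks with CACGTG. Of the 18 pooled summits at the member genes, 6 held CACGTG. The strongest pooled peaks of pssy-1 and pcyt-1 and the upstream psd-1 peak are not shown, and none of them held it. The pmt-2 peak ranked only 14330 in the pooled list and was matched in neither replicate, and the cept-1 peak was matched in replicate 2 only. The strongest psd-1 peak has no CACGTG, weaker peaks at psd-1 and pmt-1 have it in pairs, those at pmt-2 and cept-1 have it singly, and the cept-2 peak has neither CACGTG nor CATGTG. The hexamer CACGTG is the E-box known for TFEB-family proteins, and CATGTG, which differs from it by a base, reads CACATG on the other strand. Sequences run 5' to 3' in the direction of the gene, 50 bases to each side of the pooled summit. Capitals mark CACGTG and CATGTG on either strand, and the pmt-1 stretch was shortened to leave out bases annotated as UTR. Bases are those of the RefSeq WBcel235 assembly, which is ce11.
psd-1, strongest peak (chrIII:7272261-7272361, minus strand): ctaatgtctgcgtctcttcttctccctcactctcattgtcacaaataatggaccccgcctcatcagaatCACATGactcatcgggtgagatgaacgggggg
psd-1, next peak (chrIII:7273065-7273165, minus strand): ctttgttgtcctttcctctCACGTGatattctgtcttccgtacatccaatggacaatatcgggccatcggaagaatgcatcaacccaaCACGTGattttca
pmt-1 (chrII:5282348-5282425, minus strand): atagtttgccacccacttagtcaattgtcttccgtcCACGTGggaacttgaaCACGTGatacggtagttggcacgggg
pmt-2 (chrV:4628904-4629004, plus strand): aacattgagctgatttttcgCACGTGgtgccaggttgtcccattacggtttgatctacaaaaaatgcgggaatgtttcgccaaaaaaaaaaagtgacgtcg
cept-1 (chrX:12759171-12759271, plus strand): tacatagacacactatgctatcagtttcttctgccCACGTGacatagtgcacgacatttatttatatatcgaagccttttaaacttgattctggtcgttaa
cept-2 (chrV:14347353-14347453, plus strand): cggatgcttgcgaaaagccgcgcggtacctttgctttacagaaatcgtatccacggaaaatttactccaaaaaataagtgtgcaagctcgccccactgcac

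The phosphatidylserine synthase genes, which supply the substrate of psd-1, had no optimal summit. The gene pssy-1 (WBGene00013920, X, 9965592 to 9968578, plus strand) had 2 pooled summits. The stronger, with a signal of 28.2 and rank 4683, was intergenic, 261 bp upstream of the start. Summits matched it within 100 bp in replicate 1, with a signal of 14.9 and rank 3012, and in replicate 2, with a signal of 13.6 and rank 8091. So the replicates shared a weak peak just upstream of pssy-1, which held neither CACGTG nor CATGTG within 50 bp. The other pooled summit lay 2720 bp upstream, in a coding exon of ZC506.1, with a signal of 24.0. This summit held a CATGTG and no CACGTG within 50 bp. It was matched in replicate 2 and not in replicate 1. In replicate 2 it was the stronger of the 2, with a signal of 19.2 at rank 4671. The nearest optimal summit, 6832 bp upstream of pssy-1 and just outside its window, had a signal of 73.6 and lay 200 bp from a start of ZC506.1.

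The gene pssy-2 (WBGene00012095, III, 13471804 to 13475388, plus strand) was the emptiest of the 8 windows. It had no summit in the optimal, pooled or replicate 1 list. Replicate 2 had 2, with signals of 7.73 and 7.61 at ranks 17172 and 17486 of 30000, below that list's median signal of 8.64. The nearest optimal summit was 8697 bp upstream and 56 bp from a start of ant-1.1, which encodes a mitochondrial ADP/ATP carrier. A single CACGTG site lay in the pssy-2 window, in a coding exon, and no summit of any list was within 50 bp of it.

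The gene psd-1 (WBGene00015159, III, 7268416 to 7275396, minus strand) encodes phosphatidylserine decarboxylase, which in animals and yeast makes phosphatidylethanolamine in mitochondria. Its strongest peak, III, 7272161 to 7272470, had a signal of 568 in the pooled and optimal lists, rank 16 in both. In replicate 1 the signal was 209 at rank 13 of 11695, and in replicate 2 it was 358 at rank 21 of 30000. Both replicates thus placed this peak among their strongest, and the summits of the 4 lists lay within 5 bp of each other. A window signal as high or higher was found at 28 of 19973 genes, 0.140%, in the pooled list, at 25 in replicate 1 and at 37 in replicate 2.

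This psd-1 peak was inside the gene and not at its 5' end. The annotation gives psd-1 2 starts, 4253 bp apart, each with a single transcript. The summit was in intron 2 of the longer transcript, an intron of 4668 bp, 3085 bp downstream of its start and 1168 bp upstream of the inner start, from which the shorter transcript begins. The same peak thus counts as intronic for the longer transcript and as upstream of the shorter. It also falls just outside the window of 1000 bp upstream of a start. The peak was 310 bp wide in the pooled list against a most common width of 344 bp, 222 against 336 bp in replicate 1 and 308 against 340 bp in replicate 2. Of the 25 strongest optimal peaks, 14 were likewise narrower than the most common width.

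Within 50 bp of this summit a CATGTG was found and no CACGTG. The repeat GAGAGA, which 30.0% of optimal peaks and 6.10% of the flanks held, was not found there either. Among all optimal peaks 17.1% (exact 95% binomial interval 15.5 to 18.8%) held CATGTG there, against 3.34% of windows of equal length 500 bp to either side. CACGTG was present in 21.8% (20.0 to 23.7%) of them, against 2.2% of such flanks. Intervals cover the counting of peaks only. The optimal peaks closest to it in signal were those of C30E1.4, C18B12.4 and ztf-7 just above, at signals of 669, 643 and 605, and those of F56C9.10, gei-4 and B0546.4 just below, at signals of 568, 558 and 552. Each gene here has the start nearest to the peak, at distances of 138 to 5856 bp. Of these 6 peaks, the F56C9.10 peak alone held CACGTG, the C18B12.4 peak alone held CATGTG, and the ztf-7, gei-4 and B0546.4 peaks held GAGAGA.

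A weaker peak with its summit 804 bp away in the same psd-1 intron held the E-boxes. Its summit, 1972 bp upstream of the inner start, had a signal of 89.0 and rank 695 in the optimal list. Ranks were 627 in replicate 1, at a signal of 35.2, and 747 in replicate 2, at a signal of 55.0. The replicates gave it a similar place. It had 2 CACGTG sites, 28.5 and 40.5 bp from the pooled summit and starting 69 bp apart. The same sites were 58.5 and 10.5 bp from the replicate 1 summit and 16.5 and 52.5 bp from that of replicate 2. So only 1 of them lay within 50 bp of the summit in each replicate. The site nearer to the pooled summit lies in the longer palindrome TCACGTGA, present at 6.02% of optimal peaks and 0.179% of the flanks. At least 2 CACGTG sites were present at 30 of the 1959 optimal summits. In the psd-1 intron the higher peak was therefore the one without CACGTG.

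Further summits at psd-1 were lower. One at 1528 bp downstream of the 5' end, in the same intron, had a pooled signal of 28.3 at rank 4657 and was matched in both replicates. Upstream, an optimal summit with a signal of 59.7 and rank 1355 was 2037 bp from the psd-1 5' end, in the intergenic stretch between spot-1 and B0361.11. Its nearest start was that of spot-1 at 159 bp in the pooled and optimal lists. In replicate 2 its nearest start was that of B0361.11, at 152 bp. Ranks were 895 in replicate 1 and 2396 in replicate 2, so this summit was among the 1959 strongest of replicate 1 but not of replicate 2. By the nearest start it does not belong to psd-1.

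**Figure D2:**
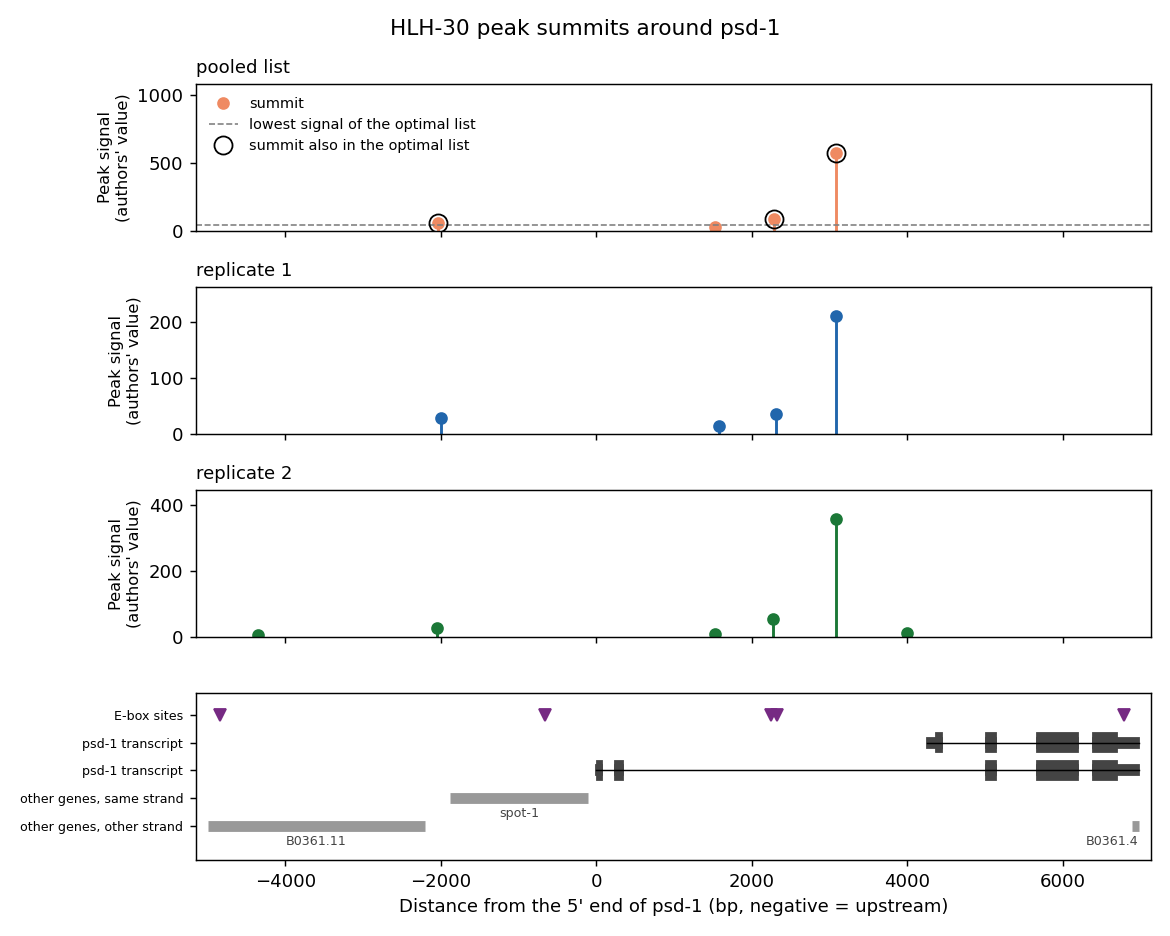
The upper panels show peak signal (authors' value, linear axis from 0, a scale of its own in each list) against the distance from the 5' end of psd-1 in bp for the pooled, replicate 1 and replicate 2 lists, with rings around summits that are also in the optimal list. The bottom panel shows the psd-1 transcripts (tall boxes coding, low boxes UTR), other genes, and CACGTG sites as triangles. The tallest summit, with a pooled signal of 568, lies between the outer and the inner start, and the pair of E-boxes lies under the lower peak beside it.

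The phosphoethanolamine methyltransferase genes ranked below the optimal list. The gene pmt-1 (WBGene00022781, II, 5278090 to 5282523, minus strand) encodes the enzyme of the first methylation of phosphoethanolamine. Its strongest summit had a pooled signal of 44.5 at rank 2181, just under the lowest optimal signal of 47.7. The signal was 16.2 at rank 2507 in replicate 1 and 29.8 at rank 2158 in replicate 2. These ranks lie past 1959, the length of the optimal list, at 21.4% of the replicate 1 list and 7.19% of the replicate 2 list. It lay in the first intron of 6 of the 8 transcripts, 148 bp downstream of the 5' end of the gene and 28 bp upstream of a start from which a further transcript begins, 176 bp inside the gene.

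In the pooled list pmt-1 had, of the 8 genes, the E-boxes closest to its strongest summit. There were 2 CACGTG sites with starts 16 bp apart, whose centres were 4.5 and 11.5 bp from the pooled summit. They were 21.5 and 37.5 bp from the replicate 1 summit and 6.5 and 9.5 bp from that of replicate 2. In the whole pooled list 15.4% of summits held CACGTG within 50 bp, and 123 of 18832, 0.653%, held at least 2. Only 2 of the 18 pooled summits at the 8 genes did, the pmt-1 summit and the lower psd-1 peak in the intron. Another pair of CACGTG sites, 1763.5 and 1832.5 bp upstream of pmt-1, was far from any peak, with the nearest summit of any list 1909.5 bp away. A lower pooled summit of pmt-1, at 2931 bp downstream, had a signal of 13.0.

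**Figure D3:**
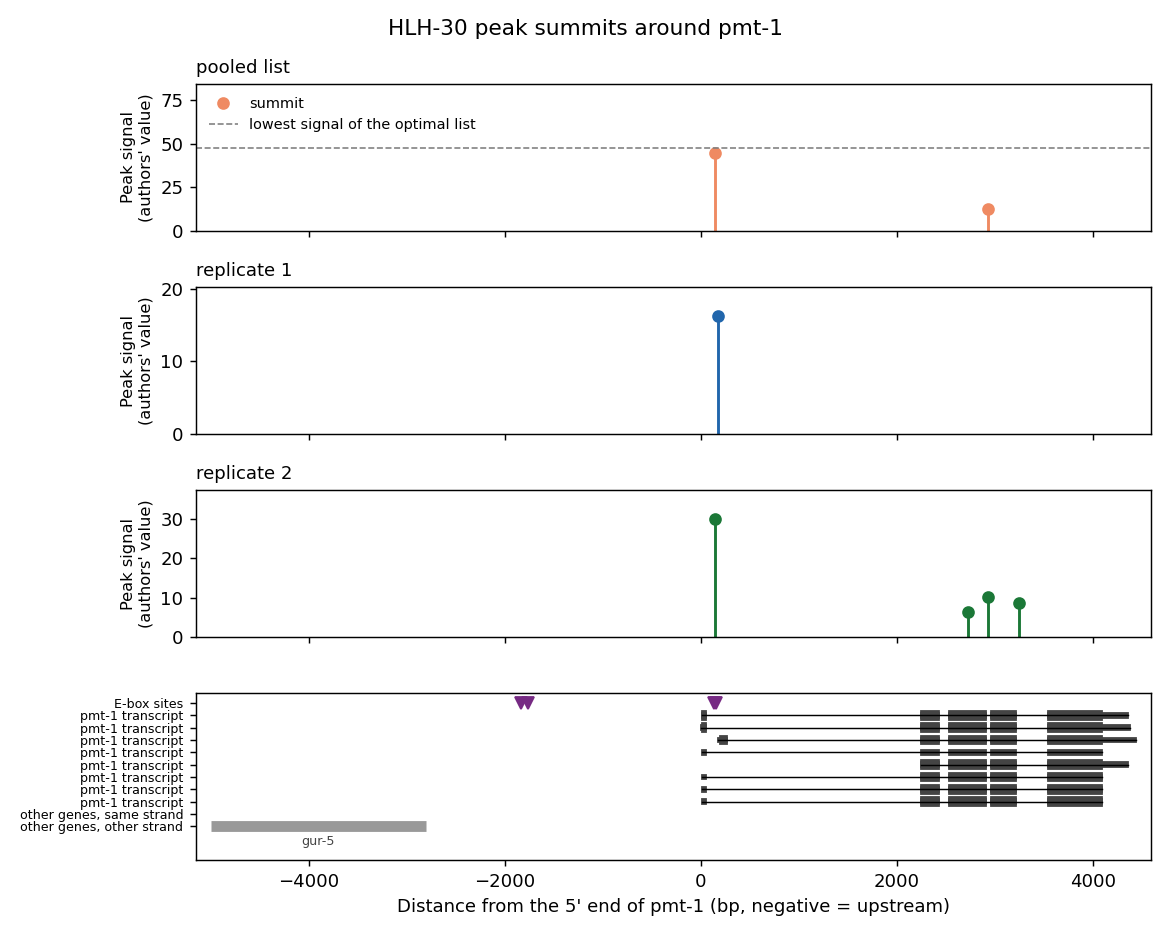
Peak signal (authors' value, linear axis from 0, a scale of its own in each list) is plotted against the distance from the 5' end of pmt-1 in bp, with the lowest signal of the optimal list, 47.7, as a dashed line in the pooled panel. The bottom panel shows the annotated pmt-1 transcripts, a neighbouring gene, and CACGTG sites as triangles. The strongest summit of each list lies at the pair of E-boxes in the first intron, and the upstream pair has no summit.

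The gene pmt-2 (WBGene00018811, V, 4628580 to 4635263, plus strand) encodes the enzyme of the later methylations that give phosphocholine. Its single pooled summit, in the first intron 374 bp downstream of the start, had a signal of 14.7 at rank 14330. Replicate 1 had no summit in the window. In replicate 2 the strongest was 513 bp downstream, with a signal of 9.30 at rank 13599, and did not match the pooled summit within 100 bp. The replicates therefore did not share a peak at pmt-2. CACGTG lay 27.5 bp from the pooled summit, and a different CACGTG lay 2.5 bp from that of replicate 2.

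The gene pcyt-1 (WBGene00017241, X, 7572357 to 7581055, plus strand) encodes the CTP:phosphocholine cytidylyl transferase, known in mammals as the rate-limiting enzyme of the CDP-choline route. Its pooled summit had a signal of 43.2 at rank 2271. In replicate 1 the signal was 11.7 at rank 5675, and in replicate 2 it was 29.7 at rank 2172. The strongest signal in a window was at or above that of pcyt-1 at 35.3% of all genes in replicate 1 and at 16% in replicate 2. The lists differ in length and in how much background they hold, so these places are given side by side as a description. It was in an intron of 6391 bp, 5353 bp downstream of the outer start and 1058 bp upstream of the inner start, a position like that of the strongest psd-1 peak. No E-box, of either spelling, and no GAGAGA was within 50 bp of its pooled summit. The nearest optimal summit lay 9174 bp past the 3' end of pcyt-1, with a signal of 82.5 and the nearest start, that of adt-2, at 3343 bp.

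The choline/ethanolamine phosphotransferase genes, which act in the last step, differed from each other in where peaks lay. The gene cept-1 (WBGene00009057, X, 12762078 to 12765898, plus strand) had 4 pooled summits, all upstream and all in introns of nhr-27, a nuclear hormone receptor gene with an intron that also reaches into cept-1. The strongest were 2857 and 2302 bp upstream, with signals of 33.0 and 23.9 at ranks 3586 and 6244. Each had a CACGTG, 12.5 and 38.5 bp from the summit. Replicate 2 had matching summits at ranks 4417 and 4953. In replicate 1 the strongest summit, with a signal of 17.0 at rank 2292, was 2975 bp upstream, more than 100 bp from the pooled one, so it did not count as a match. Its 50 bp to either side held no CACGTG.

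The gene cept-2 (WBGene00013024, V, 14347766 to 14351482, plus strand) had an optimal summit in its promoter, 363 bp upstream of its single start, in intergenic sequence. The signal was 49.1 at rank 1870 of 1959, the lowest of the optimal summits at these genes and just above the list's lowest of 47.7. In replicate 1 it was 22.1 at rank 1447, and in replicate 2 it was 27.6 at rank 2485, with summits within 12 bp of each other. The peak was therefore among the 1959 strongest of replicate 1 and not of replicate 2. It held no E-box of either spelling and no GAGAGA within 50 bp of the summit. A further pooled summit, 4191 bp upstream in an intron of F47B8.10, had a signal of 31.8. It was matched in both replicates, at ranks 2695 and 6196, and held CATGTG and no CACGTG. Another pooled summit, 4772 bp upstream and just inside the window, lay in the 5' UTR of F47B8.10, with a signal of 30.7. It held CACGTG, with its centre 14.5 bp away, and was matched in replicate 2 and not in replicate 1. In replicate 2 this summit, with a signal of 28.0, was slightly higher than the promoter one.

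Over the 8 windows there were 23 CACGTG sites, of which 8, 34.8%, had a pooled summit within 50 bp. In the nuclear genome 17729 sites were found, and 17.4% of them had one. The sites with a pooled summit lay at psd-1, pmt-1, pmt-2, cept-1 and in the far upstream part of cept-2. In replicate 1 only psd-1, with 1 site, and pmt-1, with 2, had a summit that close, beside 1165 of 17729 sites in the genome. In replicate 2 psd-1 had 1 such site, pmt-1 2, pmt-2 1, cept-1 3 and cept-2 1, beside 4433 of 17729. In the optimal list only psd-1 had any, with 2 sites, beside 464 of 17729. The member counts of each list are out of the 23 sites, and no test was run on them. Of the 18 pooled summits at the 8 genes, 6 held CACGTG, beside 15.4% of all pooled peaks. Those at pmt-2, cept-1 and cept-2 had no match within 100 bp in replicate 1, and that at pmt-2 had none in replicate 2 either. Among the 4 optimal summits 1 held CACGTG, the lower psd-1 peak in the intron, beside 21.8% of all optimal peaks. From 1000 bp upstream to 200 bp downstream of the 5' end of the gene, psd-1, pmt-1 and cept-1 had a CACGTG, 3 of 8 genes against 18.4% of all genes. Inner starts were not used in this count. A pcyt-1 site at 7578445 to 7578450, upstream of the inner start at 7578768, was therefore left out. Ordered by the strongest pooled signal in the window, psd-1 at 568 was followed by cept-2 at 49.1, pmt-1 at 44.5, pcyt-1 at 43.2, cept-1 at 33.0, pssy-1 at 28.2 and pmt-2 at 14.7, with none at pssy-2. The shares of all genes with a signal at or above these were 0.140% for psd-1, 14.4% for cept-2, 16.5% for pmt-1, 17.1% for pcyt-1, 24.9% for cept-1, 30.5% for pssy-1 and 62.8% for pmt-2. A pooled list has no spread between replicates, and the replicates order the genes differently below psd-1. In replicate 1 cept-2 came next, then cept-1 and pmt-1, and in replicate 2 pmt-1, then pcyt-1 and cept-2. The order of cept-2, pmt-1 and pcyt-1 was therefore not the same in both replicates.

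**Figure D4:**
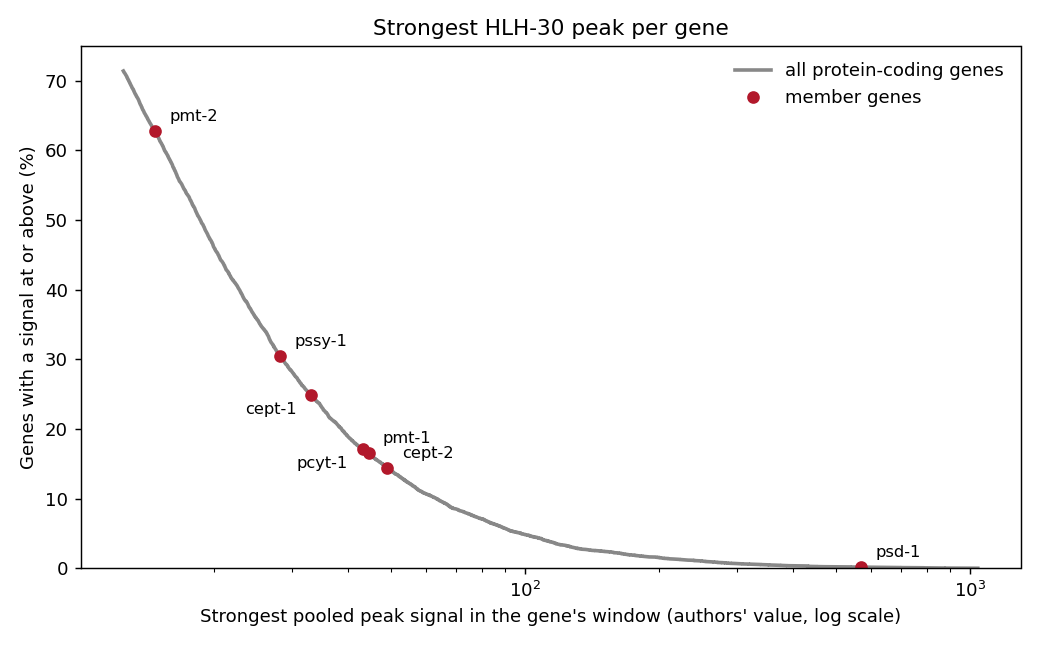
The x axis (log scale) is the strongest pooled peak signal from 5000 bp upstream to the gene end, and the y axis the percentage of all 19973 protein-coding genes with a signal at or above it. Points are 7 of the member genes, since pssy-2 had no pooled summit. The point of psd-1, at 568, lies at 0.140% of genes, and the others lie between 14.4% and 62.8%.

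Other genes of lipid metabolism were read in the same windows, namely those for further steps of these routes, for the glycerolipid backbone and other head groups, for methyl donors, for lipid regulators and for N-acylethanolamine release and breakdown. Of these 36 genes 14, or 38.9%, had an optimal summit, against 15% of all genes, and 33 had a pooled summit, against 71.4% of all genes. With a window that held no summit counted as 0, the median strongest pooled signal was 32.4, against 18.6 over all genes and 38.1 over the 8 members. In the promoter window 7 of the 36 had an optimal summit, against 6.65% of all genes. As the nearest gene of an optimal summit at any distance, 10 of the 36 were counted, beside 1689 of all 19973 genes. These lists were chosen with earlier results of these data known, which can raise such counts, and no test was run on them. Their median window was 8172 bp against 7027 bp over all genes, and neighbouring genes can share a summit. In 11 of 18 pairs of gene and summit the gene itself had the nearest start.

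Among the kinases and cytidylyl transferases of the CDP-choline and CDP-ethanolamine routes 1 of 8 had an optimal summit. It was pcyt-2.1, a CTP:phosphoethanolamine cytidylyl transferase gene, with a signal of 208 at rank 159, 1901 bp upstream of its 5' end, and a CACGTG within 50 bp. A further pcyt-2.1 summit, in an intron 395 bp from an inner start, had a signal of 73.1 at rank 972 and no CACGTG. No optimal summit was at the choline kinase genes ckb-1, ckb-2, ckb-3, ckb-4, cka-1 and cka-2 or at pcyt-2.2. Among genes for the glycerolipid backbone and other head groups 4 of 9 had one. They were acl-4, an acyltransferase gene, with a signal of 303 at rank 79, lpin-1, the lipin phosphatidate phosphatase gene, with 154, cdgs-1, the CDP-diacylglycerol synthase gene, with 93.9, and pisy-1, the phosphatidylinositol synthase gene, with 87.6. The acl-4 summit and both lpin-1 summits held CACGTG, and the stronger lpin-1 summit had letm-1 as its nearest gene.

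Genes supplying methyl groups for the pmt-1 and pmt-2 steps had an optimal summit in 3 of 9. They were mtrr-1, the methionine synthase reductase gene, with a signal of 133, mthf-1, the methylenetetrahydrofolate reductase gene, with 49.6, and mel-32, a serine hydroxymethyltransferase gene, with 54.0. The nearest start to the stronger mtrr-1 summit was that of gldi-3, and to the mel-32 summit that of let-721. The S-adenosylmethionine synthetase genes sams-1, sams-3, sams-4 and sams-5 had none. Among lipid regulators 4 of 7 had one, iglr-2, a partner of paqr-2 in membrane fluidity, with a signal of 84.2, sbp-1, the SREBP gene, with 78.6, and the nuclear hormone receptor genes nhr-49 with 77.4 and nhr-114 with 55.6. The iglr-2 summit was closer to mrps-18A. The N-acylethanolamine genes nape-1 and nape-2, which encode NAPE-hydrolysing phospholipase D enzymes, shared a summit with a signal of 256 that was nearest to siah-1, and faah-1 had none. A further nape-1 summit had a signal of 53.4.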

How the data were processed

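HLH-30 binding was measured by ChIP-seq in 2 biological replicates, which form a single group per the labels. The authors called peaks and background per replicate and on both replicates together against a control, and made an optimal list by irreproducible discovery rate, per the deposited file descriptions. No source used here names the peak caller, its filters or the cut-off, and read depth is unknown. The deposited signal values per peak were used as given. The ce10 lists were not used.

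Genes, starts and transcripts came from Ensembl release 115 of WBcel235 (the ce11 assembly), and bases from RefSeq. A summit is the peak start plus the deposited offset, counted from 1. Summits were matched between lists within 100 bp. Motifs were searched on both strands, whole within 50 bp of the summit. Assignment of summits to genes was checked on positions with known answers. Python 3.11.15, pandas 2.3.3, numpy 2.4.6, scipy 1.17.1 and matplotlib 3.10.9 were used.

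The members and gene lists were chosen with earlier results of these data known, and no test was run. Named were all members, the listed other genes with an optimal summit, the nearest genes of the 3 peaks to each side of psd-1 in signal, and genes nearest to a member's summit; ant-1.1, adt-2 and the other genes beyond the windows or under a summit were named after their values were seen. Alternatives were each replicate's 1959 strongest peaks, stronger and looser lists, other windows, and other matching distances.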

Additional observations from a re-analysis of the deposited data

How the results depend on the processing

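Of 33 alternative values for 7 results, 20 stayed within 1.5 times the main value. The rank of the strongest psd-1 peak was 13 to 21 throughout, and the 4 optimal summits were matched in both replicate lists within 50, 100 and 200 bp. The optimal list was made from these same replicates, whose lists also hold background regions, so such a match was likely from the start. The share of all optimal summits so matched is not given. Counting psd-1 and cept-2 rested on the list used. Without replicate 1, that is in the 1959 strongest peaks of replicate 2, psd-1 alone had a summit in its window or nearest to its start, and without replicate 2 both did (range 1 to 2 for each count). The promoter window count, cept-2 in the main list, ranged from 0 without replicate 1 to 1 without replicate 2. In the 979 strongest optimal peaks these counts were 1 (window), 1 (nearest start) and 0 (promoter), and in the whole pooled list 7, 7 and 4. The pooled window count of 7 stands beside 71.4% of all genes. Shares of all genes under the other alternatives are not given, so those member counts cannot be read as high or low. With 2000 bp upstream to 500 bp downstream of a start the promoter count was 2, since psd-1 then entered. The count of optimal member summits with CACGTG fell from 1 to 0 within 25 bp of the summit. Among the 1959 strongest peaks of each replicate, 2 of the 4 optimal summits were matched in both. Of the other listed lipid genes 33 of 36 had a pooled summit, against 71.4% of all genes, and 10 to 15 had one under the remaining alternatives. Longer lists or wider windows raise such counts by construction, and stricter ones lower them. Depth is unknown, so an empty window says only that no summit was listed there.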
